A study of Mus musculus with 4 samples.

Results

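The replication-dependent histone genes were taken as the array probes that lie in 3 intervals of the mouse genome (build mm9). The intervals are chr13:21770000-22140000 and chr13:23500000-23870000, which hold the Hist1 cluster, and chr3:96030000-96100000, which holds the Hist2 cluster. They are called here the proximal Hist1 interval, the distal Hist1 interval and the Hist2 interval, where proximal means the lower coordinates on chromosome 13. They held 714 of the 174638 genomic probes on the array, with 157 probes in the proximal Hist1 interval, 424 in the distal one and 133 in the Hist2 interval. After filtering, these probes formed 50 regions of at least 3 probes, out of 17452 on the whole array, and 14, 28 and 8 of them lay in the 3 intervals. The choice used position alone and no measured value.

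The study profiled DNA methylation in 3T3-L1 cells, preadipocytes of a mouse embryo fibroblast line, which become adipocytes on induction. Wild type 3T3-L1 cells were the control. The other cells were a 3T3-L1 line stably transfected with shRNA8, an shRNA against the long non-coding RNA slincRAD, and the labels do not say whether that line is 1 clone or a pool, nor name a control shRNA. Each line gave 1 sample before induction (day -2) and 1 on day +2. By then the medium held insulin (167 nM), dexamethasone (1 µM) and the phosphodiesterase inhibitor 3-isobutyl-1-methylxanthine (0.5 mM). DNA fragments bound by an antibody against 5-methylcytosine (IP, labelled with Cy5) and unselected DNA (input, labelled with Cy3) were hybridized together to 1 array for each line and day (MeDIP-chip). With 4 arrays and no replicate, there is no measure of how much cultures of the same kind vary, and no p-value is given. An SD beside a region's value is over its probes, on the same arrays. Each line also occupied its own pair of neighbouring positions on 1 slide, per the file headers, so line and slide position cannot be told apart.

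Replication-dependent histone genes encode the H1, H2A, H2B, H3 and H4 proteins that package newly copied DNA. They are transcribed mainly in S phase, lack introns, and give mRNAs that end in a stem-loop and not in a poly(A) tail. Many H2A and H2B genes lie head to head and share a promoter, and the genes of the Hist1 cluster sit in a histone locus body where the coactivator NPAT is concentrated. In 3T3-L1 cultures the hormone mixture makes confluent cells enter the cell cycle again before they differentiate, which is when these genes are used. Promoters of genes that are active in all dividing cells are commonly free of CpG methylation. The antibody used in MeDIP needs methylated cytosines, so its signal depends both on methylation and on how many CpG dinucleotides a fragment holds.

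To show how much CpG these promoters hold, the 250 bases before the transcription start were read from RefSeq (build GRCm38.p6) for the histone genes of the same clusters. RefSeq lists 65 such genes, 1 of them a pseudogene, in 3 blocks of 24, 31 and 10, and 59 of the 65 matched, with 60 promoter windows. The windows shown are the one with the most CpG (H2ac18, an H2A gene of the Hist2 cluster, 34 CpG), one of the pair with the fewest (H2bc3, an H2B gene, 2 CpG, as many as H4c2), and the H1 gene with the most (H1f4, encoding the linker histone H1.4, 19 CpG). The fourth belongs to Vmn1r188, the first by position of the vomeronasal receptor genes on chromosome 13, which lie between the blocks of Hist1 genes. Capitals mark the CpG dinucleotides.
H2ac18, chr3:96245247-96245496, plus strand: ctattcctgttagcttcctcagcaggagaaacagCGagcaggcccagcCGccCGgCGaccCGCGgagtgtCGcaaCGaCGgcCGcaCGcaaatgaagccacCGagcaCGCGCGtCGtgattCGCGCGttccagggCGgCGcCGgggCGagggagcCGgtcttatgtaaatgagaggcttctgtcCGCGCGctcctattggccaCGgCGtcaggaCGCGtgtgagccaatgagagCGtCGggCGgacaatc
H2bc3, chr13:23746484-23746733, plus strand: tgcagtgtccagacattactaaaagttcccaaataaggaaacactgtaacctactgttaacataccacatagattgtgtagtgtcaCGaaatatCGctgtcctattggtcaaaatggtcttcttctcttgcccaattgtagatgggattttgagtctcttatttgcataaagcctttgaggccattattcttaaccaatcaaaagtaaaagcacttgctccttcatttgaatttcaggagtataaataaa
H1f4, chr13:23622559-23622808, minus strand: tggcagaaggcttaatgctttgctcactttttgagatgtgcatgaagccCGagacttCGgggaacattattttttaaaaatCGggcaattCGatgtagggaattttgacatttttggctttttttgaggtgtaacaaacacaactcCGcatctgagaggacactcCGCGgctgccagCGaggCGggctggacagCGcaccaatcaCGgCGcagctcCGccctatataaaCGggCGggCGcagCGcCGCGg
Vmn1r188, chr13:22087628-22087877, plus strand: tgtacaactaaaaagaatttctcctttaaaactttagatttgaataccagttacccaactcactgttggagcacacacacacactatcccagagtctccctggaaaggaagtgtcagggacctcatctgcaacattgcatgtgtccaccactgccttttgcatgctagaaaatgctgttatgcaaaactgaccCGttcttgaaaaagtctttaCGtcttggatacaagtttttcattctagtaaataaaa

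The histone promoters ranged from 2 to 34 CpG with a median of 9.5, against a median of 6 over all 32851 RefSeq windows of that length and 1 over the 33 vomeronasal receptor windows on chromosome 13, whose range was 0 to 4. The histone promoters therefore differ widely among themselves in the number of CpG that could be methylated. Motifs were searched on both strands, and matches may overlap. CCAAT, the box bound by NF-Y, was in 50 of the 60 windows (83.3%) against 33.8% of all windows. It was in every H1, H2A and H2B window and in 3 of 11 H4 windows. TATAAA was in 28 windows (46.7%, against 12.4%). The octamer ATGCAAAT, the site of Oct-1 in H2B promoters, was in 13 (21.7%, against 1.60%), namely 7 of 16 H2B windows, 6 of 17 H2A windows and none of another class. The windows of 10 H2A and H2B pairs overlapped by 163 to 248 bases, which is the head-to-head arrangement. A site inside such an overlap is counted in both windows, so the motif counts of H2A and H2B are not independent. A motif match is a description of the letters and does not show that a factor binds there.

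These RefSeq coordinates are of another build than the arrays, so no array region is assigned to a gene. The blocks also hold genes that do not encode histones. Among the protein-coding ones are Zfp184, Pom121l2 and Prss16 in the first block, and Hfe, Trim38 and members of the Slc17a transporter family in the second, and the first block holds 31 tRNA genes. A region in the intervals is therefore called a histone region by its position, and it need not be a histone promoter.

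The array covered the clusters in pieces. All unflagged probes, 713 of the 714, formed 46 stretches with a median width of 1847.5 bp. Only 4 of these were longer than 10000 bp, and they held 295 probes. Of them, 3 lay in the distal Hist1 interval, with 50, 74 and 74 probes, and the fourth covered 25935 bp of the Hist2 interval with 97 probes. Probe lengths ran from 45 to 60 bp. Probes of 45 bp made up 33.9% of the histone probes and 49.9% of all probes, and probes of 60 bp made up 21.3% and 13.2%. Signal depended strongly on this length, so levels are also given at matched length.

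The IP signal of the histone clusters was low. At 45 bp, the median net signal (after background subtraction, in scanner units) of the 242 histone probes was 86.7 in control cells at day -2, 88.0 at day +2, 101 in shRNA8 cells at day -2 and 102 at day +2. Over all 45-bp probes on the array it was 120, 122, 138 and 140. The histone median was therefore lower in each of the 4 arrays at the same probe length, and it hardly differed between the days within a line. The input signal was lower as well, with 12.7, 12.5, 13.8 and 15.0 for the histone probes and 16.6, 15.4, 22.2 and 21.5 for all 45-bp probes, in the same order. The 57 probes of 45 bp from the stretch between the Hist1 intervals, chr13:22140000-23500000, had IP medians of 125, 123, 155 and 150, near those of all probes. At 60 bp the IP medians of the 152 histone probes were 1.55 to 1.66, against 1.97 to 2.31 for all probes, and both lie close to the background.

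**Figure D1:**
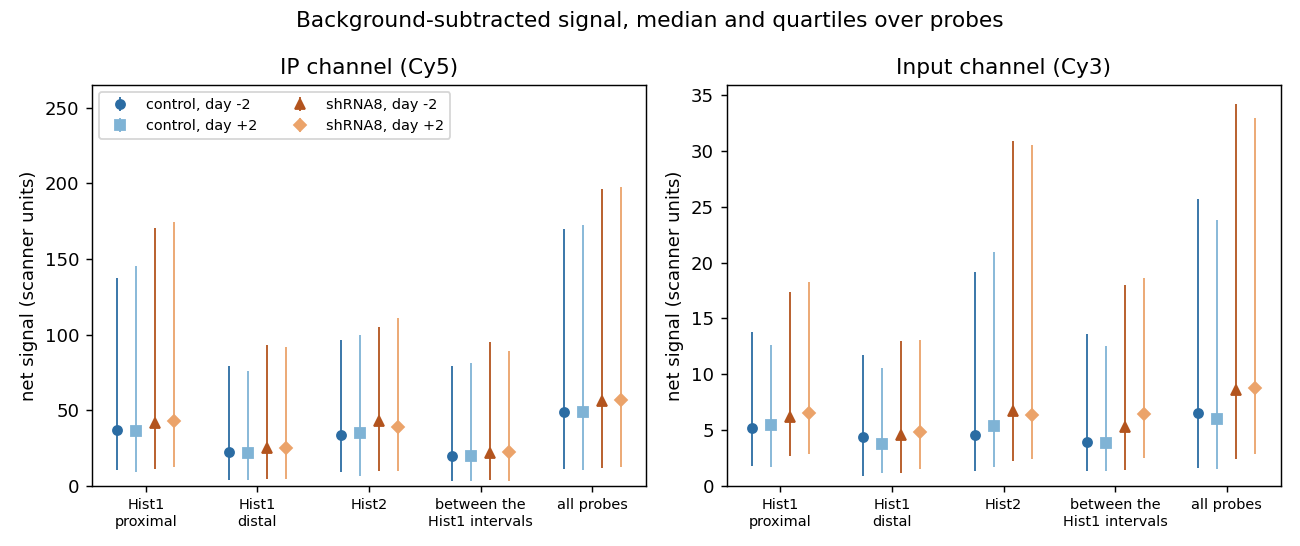
Net signal of the IP channel (left) and the input channel (right), in scanner units, for the probes of the 3 histone intervals, of the stretch between the Hist1 intervals and of the whole array. Points are medians over probes of 1 array and lines run from the lower to the upper quartile. In both channels the medians of the distal Hist1 interval and of the stretch between lie below those of all probes, and the 4 arrays keep the same pattern, with no correction for probe length.

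Over probes of any length the distal Hist1 interval had the lowest median IP signal of the 3 in every array, and the proximal one the highest except in shRNA8 cells at day -2, where the Hist2 interval was slightly higher. The medians of the proximal interval were 37.2, 36.2, 41.8 and 42.7, in the order control day -2, control day +2, shRNA8 day -2 and shRNA8 day +2. Those of the distal interval were 22.6, 21.3, 24.7 and 24.97, and those of the Hist2 interval were 33.8, 34.7, 42.5 and 38.7. Probes of 45 bp, which are bright, made up 47.1% of the probes in the proximal interval and 26.9% in the distal one, and the part of length in this order was not tested. An IP signal under 10 in all 4 arrays was found for 210 of the 713 histone probes (29.5%) and 21.9% of all probes, and a signal over 100 in all 4 for 161 (22.6%) and 34.9%. These shares pool all probe lengths, which differ between the 2 sets, and the part of length in them was not tested.

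Along the 4 long stretches, dim and bright probes alternated over short distances. In the Hist2 stretch, 25 of 97 probes stayed under 10 in every array and 22 stayed over 100. In the 3 long stretches of the distal Hist1 interval, 13 of 50, 27 of 74 and 24 of 74 probes stayed under 10, while 10, 13 and 8 stayed over 100. In windows of 2000 bp along the Hist2 stretch, the median IP signal in control cells at day -2 ran from 0.0635 in 1 window, whose 6 probes had a median length of 60 bp, to 123 in another, whose 10 probes had a median length of 45 bp. These extremes also differ in probe length. In the Hist2 stretch most of the probes under 10 were of 60 bp, and most of those over 100 were of 45 bp. The part of length in the alternation was not tested.

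**Figure D2:**
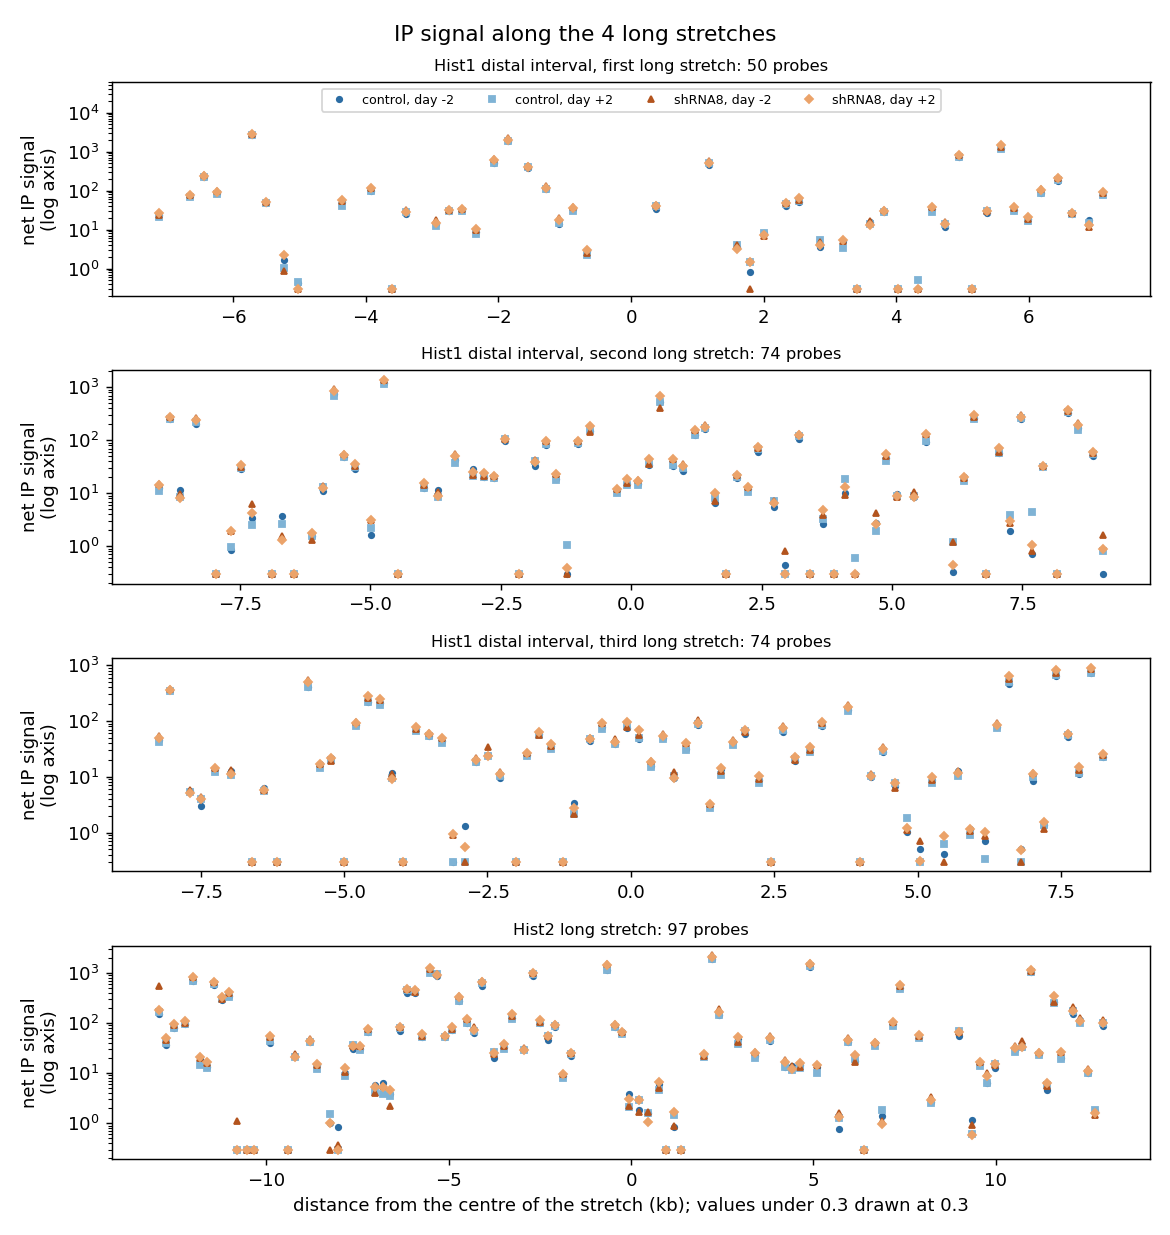
Net IP signal (scanner units, log axis) of each probe along the 4 stretches longer than 10000 bp, by distance from the stretch's centre in kb, with 1 symbol per array. Probes under 10 stand next to probes over 100 in all 4 panels, and most probes keep their place in the 4 arrays.

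Levels were then taken as the log2 ratio of IP to input, with 0 at the median probe of each array. Of the 713 unflagged histone probes, 319 had input above background in all 4 arrays and entered this measure. That is 44.7% of the 714, against 54.4% of all probes, with no correction for probe length. Of the unflagged probes of 45 bp, 178 of 242 histone probes passed, and 63964 of 86967 over the array, which are nearly equal shares. At 60 bp, 20 of 152 histone probes passed, and 4390 of 23016 over the array, a smaller share for the histone probes. The share was 53.5% in the proximal Hist1 interval, 40.3% in the distal one and 48.1% in the Hist2 interval. The ratio is relative within an array and is no absolute methylation level.

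On this scale the histone regions did not stand apart from the rest of the array. Their median was -0.16 in control cells at day -2, -0.21 at day +2, -0.03 in shRNA8 cells at day -2 and -0.15 at day +2, against -0.21, -0.20, -0.21 and -0.19 over all regions. Over single probes of 45 bp the histone medians were 0.10, 0.01, 0.26 and 0.25 in the same order, against 0.02, 0.03, 0.02 and 0.05 over all. At 60 bp they were -1.32, -1.54, -1.24 and -1.58, against -1.35, -1.35, -1.23 and -1.49. Averaged over the 4 arrays, the median was -0.07 with a range of -2.34 to 1.64 and an SD over regions of 0.77, against -0.20 and 0.82 for all regions. In 23 of the 50 (46%) the ratio lay below 0 in all 4 arrays, against 51.1% of all regions, and in 17 (34%) it lay above 0 in all 4, against 30.7%. The gap of 0.13 between the 2 medians was small beside the spread over regions, and it changed sign in 4 of 8 other ways of processing, between -0.16 and 0.26.

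The intervals were then set beside each other. Region medians of the proximal Hist1 interval were 0.00 at day -2 and 0.08 at day +2 for control, and 0.29 and 0.18 for shRNA8. Those of the distal interval were -0.39, -0.35, -0.23 and -0.36, and those of the Hist2 interval were -0.09, -0.16, 0.10 and -0.14. By region means the proximal interval thus had the highest median in every array and the distal one the lowest. Over single probes the proximal interval was again highest, with medians of 0.37, 0.48, 0.74 and 0.43. Those of the distal interval were -0.13, -0.14, 0.04 and -0.02, and those of the Hist2 interval 0.03, -0.17, -0.11 and -0.19, so the Hist2 interval was then the lowest in 3 of the 4 arrays. The stretch between lay below all regions by its 24 region means, at -0.49, -0.38, -0.47 and -0.51, and above the median probe of the array by its probes, at 0.28, 0.22, 0.19 and 0.18. Its place relative to the array therefore depends on the summary.

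**Figure D3:**
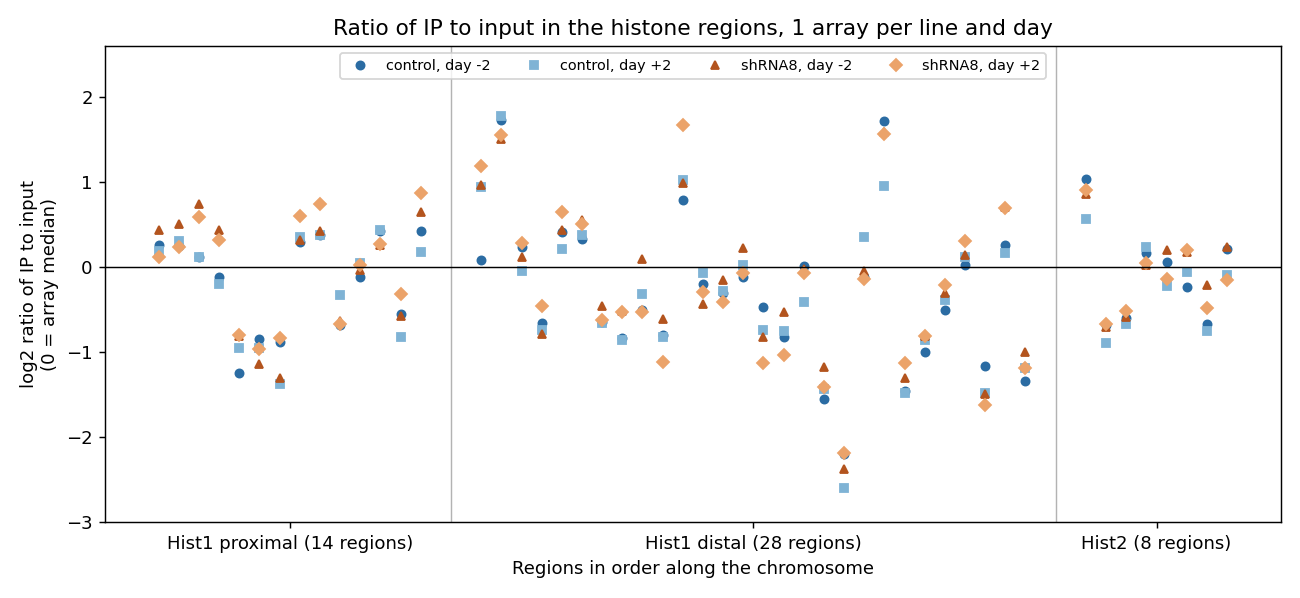
Log2 ratio of IP to input (0 is the array median) for each of the 50 histone regions, in order along the chromosome, with 1 symbol for each of the 4 arrays. The mean over the 4 arrays runs from -2.34 to 1.64 across regions, while the median region varies by 0.37 between its highest and its lowest array.

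The order of the histone regions was nearly the same in every array. Across the 50 regions, Pearson's r between arrays was 0.928 to 0.952, close to the 0.932 to 0.955 over all 17452 regions. These are correlations across regions of the same arrays, which share probes and probe lengths, so they carry no p-value. The median region differed by 0.37 between its highest and its lowest array, against 0.33 over all regions.

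The regions with the highest ratio lay in the distal Hist1 interval. At chr13:23580968-23581844 (3 probes) the ratio was 1.73 in control cells at day -2, 1.78 at day +2, 1.51 in shRNA8 cells at day -2 and 1.55 at day +2, with SDs over probes of 0.19 to 0.36. Its median IP signal was 656 to 761 against an input of 30.0 to 48.0. It was the 1 histone region (2%) above 1 in every array, against 1.90% of all regions. At chr13:23802182-23803431 (3 probes) the ratios were 1.72, 0.95, 1.59 and 1.56, and at chr13:23741728-23742708 (4 probes) they were 0.79, 1.03, 0.99 and 1.67.

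The regions with the lowest ratio lay in the distal interval too. At chr13:23786380-23788169 (4 probes) the ratio was -2.20 at day -2 and -2.60 at day +2 for control, and -2.38 and -2.18 for shRNA8. Its median IP signal was 24.4 to 29.3 and its input 14.7 to 17.2. The region chr13:23847802-23849245 (4 probes) had ratios of -1.17, -1.49, -1.50 and -1.62. At chr13:23780097-23784097 (9 probes) they were -1.55, -1.43, -1.18 and -1.41. The SDs over probes there were 3.03, 2.99, 3.06 and 3.03, so this mean covers probes that differ widely. One probe of 60 bp had ratios of -8.03 to -7.84 with a net IP signal of only 0.33 to 1.19, near the background. Without it the ratios of the other 8 probes averaged -0.76, -0.61, -0.34 and -0.61, so the region's place among the lowest rests on this probe. All 3 are among the 4 histone regions (8%) below -1 in every array, against 12.6% of all regions.

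For each interval, the region with the most probes was also followed. In the Hist2 interval, chr3:96047707-96053308 (19 probes) had ratios of -0.60, -0.67, -0.59 and -0.51, a range of 0.16 over the arrays. In the distal Hist1 interval, chr13:23830140-23834482 (11 probes) had -0.999, -0.85, -0.81 and -0.81. In the proximal one, chr13:21900944-21903907 (8 probes) had 0.29, 0.36, 0.32 and 0.60. In every array the proximal region was the highest of the 3 and the distal one the lowest, as for the medians of their intervals. A probe of 45 bp in this distal region had ratios of -7.01 to -6.62. Its net IP signal was 7.89 to 10.2 and its input 140 to 235. The region's place as the lowest of the 3 rests on this probe.

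The day comparison asks whether the clusters' methylation differed between the cells before induction and those on day +2. In control cells the median difference over the 50 regions, day +2 minus day -2, was -0.01, against 0.00 over all regions, and 23 of the 50 were positive. Regions were counted by a size rule, a mean log2 difference of 0.6 or more (1.52-fold) shared in direction by 75% or more of the probes. By this rule 1 histone region was lower and none was higher, while over the array 2.09% of regions were past the rule in either direction (0.986% higher, 1.11% lower). In shRNA8 cells the median difference was 0.01, against 0.02 over all regions, and 26 of 50 (52%) were positive, against 53.0%. Here 1 histone region was higher and none was lower, with 3.19% of all regions past the rule (0.98% higher, 2.21% lower). Both counts are near the background of the array.

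Neither region past the rule was past it in both lines. At chr13:23802182-23803431 the ratio in control cells was 1.72 at day -2 and 0.95 at day +2, a difference of -0.77 ± 0.47 (SD over 3 probes), and in shRNA8 cells the difference was -0.03 ± 0.29. In control cells the IP channel differed by -0.08 and the input channel by 0.71 on the log2 scale, each after its own normalization. At chr13:23741728-23742708 the ratio in shRNA8 cells was 0.99 and 1.67, a difference of 0.67 ± 0.70 (SD over 4 probes), with all 4 probes higher, and in control cells 0.24 ± 0.89. There the IP channel differed by -0.04 and the input channel by -0.63. So in both regions the ratio moved with the input channel while IP hardly moved. The difference between the lines' day changes was not tested. At chr13:23557632-23558924 the day difference in control cells was larger, 0.86 ± 0.83 (SD over 3 probes), but 1 of its 3 probes moved the other way and it was not past the rule.

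The comparison of the lines asks how slincRAD shRNA cells differed from wild type cells. At day -2 the median difference over the histone regions, shRNA8 minus control, was 0.13, against 0.00 over all regions, and 34 of 50 (68%) were positive, against 51.0%. By the rule, 2 histone regions were higher in shRNA8 cells and none was lower, with 2.43% of all regions past it in either direction (1.18% higher, 1.25% lower). At day +2 the median difference was 0.15, against 0.02, and 32 of 50 were positive, against 52.5%. There, 3 histone regions were higher and none was lower, with 3.34% of all regions past the rule (1.4% higher, 1.94% lower). The counts past the rule are few, and the small positive shift is spread over many regions.

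Most of the shift was in the input channel. The median input difference of the histone regions was -0.14 at day -2 and -0.12 at day +2, against -0.03 and -0.05 over all regions. The median IP difference was -0.02 and 0.02, against -0.02 and 0.00 over all regions. IP was higher in shRNA8 at both days in 11 of 50 histone regions (22%) and 17.5% of all regions. Relative to the array, the shRNA8 input was below the control input on both days in 26 of 50 histone regions (52%) and 36.0% of all regions. The difference of the ratio was positive at both days in 23 histone regions (46%) and 30.2% of all regions, negative at both days in 7 (14%) and 26.7%, and of opposite sign in 20 (40%) and 43.1%. In the stretch between the Hist1 intervals the median differences went the other way, -0.03 at day -2 and -0.13 at day +2, and 13 of the 24 regions were negative at both days. The 2 days use different arrays, but each line's pair of arrays sat side by side, so the same sign at both days is no independent support.

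**Figure D4:**
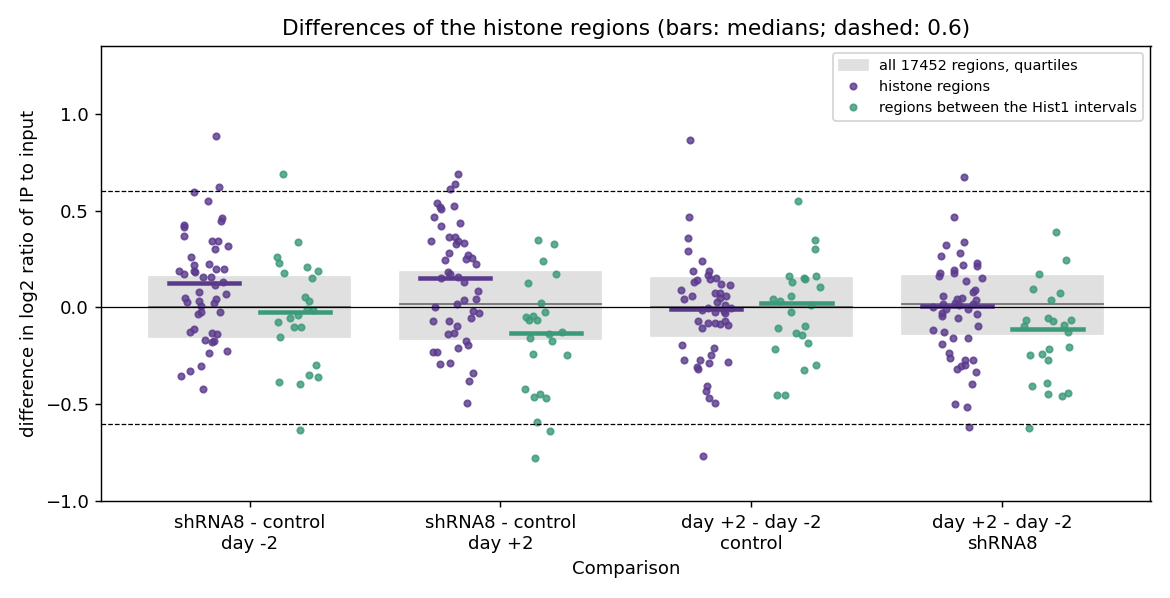
Difference in the log2 ratio of IP to input for each of the 50 histone regions (purple) and the 24 regions between the Hist1 intervals (green) in the 4 comparisons, with medians as bars, the quartiles of all 17452 regions in grey and the size of 0.6 as dashed lines. The histone medians of the line comparisons lie at 0.13 and 0.15, inside the quartiles of all regions, and those of the day comparisons lie at -0.01 and 0.01.

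By interval, the line difference at day -2 had medians of 0.07 in the proximal Hist1 interval (10 of 14 regions positive), 0.17 in the distal one (19 of 28) and 0.02 in the Hist2 interval (5 of 8). At day +2 these were 0.20 (8 of 14), 0.09 (18 of 28) and 0.19 (6 of 8). The order of the intervals therefore changed between the days, and no interval carried the shift alone.

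The 5 regions past the rule between the lines were all higher in shRNA8 cells. At day -2, chr13:23557632-23558924 had a ratio of 0.08 in control and 0.96 in shRNA8 cells, a difference of 0.88 ± 0.98 (SD over 3 probes), with IP differing by 0.03 and input by -0.85. At day +2 its ratios were 0.94 and 1.19, so the control array at day -2 stands apart from the other 3. Its median net input was 8.39, 3.61, 7.81 and 4.91 for control (day -2, day +2) and shRNA8 (day -2, day +2), a few units over the background.

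In the proximal Hist1 interval, chr13:21813172-21814255 differed in the same direction at both days. Its ratios at day -2 and day +2 were 0.12 and 0.11 for control, and 0.74 and 0.58 for shRNA8. The difference at day -2 was 0.62 ± 0.27 (SD over 5 probes) and at day +2 0.47 ± 0.59, with all 5 probes higher at both days, and only the first was past the rule. IP differed by 0.06 and 0.05, and input by -0.56 and -0.40. Both shRNA8 ratios lay above both control ratios, but the region was named for its line difference on these same arrays. The share of all regions that separate in this way was not counted.

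At day +2, chr13:22133034-22135320 had a ratio of 0.18 in control and 0.87 in shRNA8 cells, a difference of 0.69 ± 0.66 (SD over 5 probes), with all 5 probes higher. At day -2 its ratios were 0.43 and 0.65. The other two were the regions of the day comparisons. At chr13:23741728-23742708 the ratio at day +2 was 1.03 in control and 1.67 in shRNA8 cells, a difference of 0.64 ± 0.62 (SD over 4 probes). At chr13:23802182-23803431 it was 0.95 and 1.56, a difference of 0.61 ± 0.39 (SD over 3 probes). The day comparisons share these arrays, so the control array at day +2 enters both the day and the line value of the latter region, and the shRNA8 array at day +2 both values of the former. In the 3 regions IP differed by 0.08, -0.04 and -0.01, and input by -0.57, -0.57 and -0.53. With the IP channel alone, none of the 17452 regions on the array was past the rule in any of the 4 comparisons, so the rule says nothing about the histone regions in that channel.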

How the data were processed

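The authors deposited Agilent Feature Extraction 11.0.1.1 output, whose headers name build mm9. The intensity columns used hold, per the file headers, median, background-subtracted and dye-normalized processed signals, and a deposited log10 ratio was used as an alternative. The submitters' processing notes name limma without its role.

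Log2 ratios of processed Cy5 to processed Cy3 were formed. Probes flagged as saturated, non-uniform or outliers were left out (174301 of 174638 kept), as were probes with input not above background in all 4 arrays (95060 kept). Ratios were median centred and quantile normalized, which removes overall differences between arrays. Neighbouring probes were joined across gaps of 1000 bp or less, and groups of 3 or more were kept. The 1 region that crosses an interval's edge, chr3:96023748-96031186, was not counted as a histone region. Precision is limited by the number of arrays. For shRNA8 at day +2, the input label speaks of cells before induction, and day +2 was used.

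Named are the histone regions past the size rule, the 3 with the highest and the 3 with the lowest mean ratio, and the one with the most probes per interval. Members, lists and alternatives were chosen with earlier results of these data known. The files pair probes with coordinates of mm9 and not with genes, so a list of histone pathway genes was not analysed here. The region script was tested on simulated data. The tools were limma 3.58.1 in R 4.3.3, for the loess alternative, and Python 3.11.15 with pandas 2.3.3, numpy 2.4.6, matplotlib 3.10.9 and scipy 1.17.1.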

Additional observations from a re-analysis of the deposited data

How the results depend on the processing

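The counts of histone regions past the size rule, 2 (day -2) and 3 (day +2) for the line comparison and 1 in each day comparison, depended on the processing. With a within-array loess they were 6 and 9 for the lines and 5 for the control day change. The shares of all regions rose too, to 5.49%, 6.75% and 5.46%. With loess the direction was also mixed between the lines, 5 higher and 1 lower at day -2, and 8 and 1 at day +2. In the control day change 2 were higher and 3 lower. The 1 region of the shRNA8 day change was then lower and not higher. Median centring alone gave 0 between the days in shRNA8 cells. Without the filter on input (44 regions) the counts were 1 and 1 between the lines and 0 between the days in control cells. All 4 counts were 0 with input well above background (21 regions), with signals not background subtracted, with the IP channel alone and with a size of 1. In these settings few regions of the array were past the rule, 0.358% to 1.00% with input well above background, 8, 14, 1 and 9 regions without background subtraction, 0 with IP alone and 0.155% to 0.521% at a size of 1, so these counts say little about the histone regions. A size of 0.4 gave 8 and 11 for the lines, 4 for the control day change and 3 for that of shRNA8, with 8.09%, 10.3%, 7.43% and 8.31% of all regions past it. The median of probes gave 0 and 1 between the lines. Requiring 5 probes (29 regions) gave 1 and 1 between the lines and 0 in both day comparisons, and a gap of 500 bp (41 regions) gave 4 between the lines at day -2, 0 for the control day change and 2 for that of shRNA8. Scaling to one median absolute deviation, the deposited log10 ratio, removal of the median at each probe length and a rule that all probes move alike kept each count within 1.5 times. A size of 0.4 and a gap of 500 bp each gave 1 lower histone region between the lines at each day. Fewer regions were tested where their number is given, and the cause of the other changes was not tested.

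The median line difference of the histone regions stayed positive in all 12 alternatives that change it, at 0.00 to 0.16 at day -2 and 0.00 to 0.22 at day +2, but in some it was near that of all regions. With input well above background at day +2 it was 0.03 against 0.02, with 52.4% of histone regions and 55.1% of all regions positive. Without background subtraction it was 0.06 against 0.00 at day -2 and 0.02 against 0.01 at day +2, and with IP alone 0.00 against 0.00 on both days. Leaving out 1 dim probe, chosen after seeing the data, moved the mean ratio of chr13:23780097-23784097 from -1.39 to -0.58. The day medians changed sign, between -0.03 and 0.02 in control and -0.04 and 0.02 in shRNA8 cells. With the IP channel alone, chr13:23741728-23742708 turned to -0.0319 for the line difference at day +2 and to -0.0394 for the shRNA8 day change, and chr13:23802182-23803431 turned to -0.000921 between the lines at day +2. No paired analysis was possible because the groups compared share only 1 replicate number, and leaving out an array would empty its group. A fit with additive terms for line and day, with 1 degree of freedom left, was not run. The dim input channel, a few units over its background at many histone probes, limits every ratio here.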
